A study of Homo sapiens with 6 samples.

Results

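In DLD1 colorectal cancer cells that carried a lentiviral short hairpin RNA (shRNA) directed at CDKL1, genes for endoplasmic reticulum (ER) folding and genes for ER-associated degradation were read on the same arrays as in cells infected with a control shRNA lentivirus. The set holds 40 genes chosen by name for their place in ER folding, translocation and degradation; no measured value enters the rule, but the list was drawn up with earlier results of these data known. Each gene was read from the probe set that carried its symbol alone and had the highest mean over all arrays. By that rule 39 of the 40 were measured, out of 18132 genes in all, and SEC61G was not analysed here. The 39 fell into 15 chaperone and oxidative folding genes, 16 degradation genes, 5 translocon genes and 3 sensor or ER membrane regulator genes.

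The study used DLD1, an established human colorectal adenocarcinoma line, and nothing but the hairpin distinguishes the groups in the labels. Each group, control shRNA and CDKL1 shRNA, held 3 samples, and total RNA of each sample was hybridised to 1 Affymetrix expression array, 6 in all. Both groups carry an shRNA lentivirus. The hairpin sequences, the number of hairpins, the time after infection and whether cells were selected are not stated in the labels, and every value comes from this line. All levels are log2 expression values, and every change is the CDKL1 shRNA mean minus the control shRNA mean on that scale. A gene is said to have risen or fallen where the adjusted p of the limma model over all 18132 genes (Benjamini-Hochberg) was under 0.05.

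Proteins that enter the secretory pathway are threaded into the ER through the SEC61 channel, folded there by chaperones and disulfide isomerases, and, where folding fails, moved back to the cytosol and handed to the proteasome. When unfolded protein builds up, the sensors ATF6, IRE1 (encoded by ERN1) and PERK (encoded by EIF2AK3) raise the expression of folding and degradation genes and slow translation. Epithelial cells of the colon secrete mucins and other glycoproteins and depend on this machinery.

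CDKL1 itself, the targeted gene, had levels of 4.51, 4.42 and 4.17 in control arrays and 4.25, 4.20 and 4.08 in CDKL1 shRNA arrays. The groups overlapped, the log2 change of -0.19 did not pass (limma, adjusted p = 0.219). By permutation, exact and two-sided, p was 0.3, where 0.1 is the smallest p that 3 arrays against 3 allow. The knockdown could therefore not be checked with this probe set, and groups are named as labelled. Array medians lay between 6.64 and 6.70. The log2 difference between the 3' and the 5' probe sets of ACTB, a sign of RNA quality, was 1.39 to 1.41 in control arrays and 1.52 to 1.73 in CDKL1 shRNA arrays, and that of GAPDH was 0.187 to 0.222 and 0.246 to 0.297. The epithelial markers EPCAM, KRT8, KRT18 and CDH1 lay at mean levels of 13.53, 13.77, 14.25 and 12.67. The remaining colon epithelium markers, KRT20, CDX2, CDX1 and VIL1, lay at 10.56, 10.69, 6.19 and 5.57. Of the 8 markers in that list KRT20 rose by 0.52 (limma, adjusted p = 0.000746), VIL1, the dimmest, fell by 0.57 (adjusted p = 0.019), and the others did not pass. The summed linear signal of 8 colon epithelium markers was 56200 to 57300 in control and 53300 to 54100 in CDKL1 shRNA arrays, and that of 6 secretory epithelium markers 7670 to 7990 and 7240 to 7750, with TFF3 up by 0.43 (limma, adjusted p = 0.00597). The other secretory markers did not pass. AGR2, by far the brightest at 12.74, changed by -0.11 with groups apart, FCGBP by -0.11, SPDEF by -0.06, MUC2 by 0.14 and CREB3L1 by 0.21. For 5 plasma cell markers the sums were 1210 to 1310 and 1310 to 1340, for 7 fibroblast markers 261 to 287 and 249 to 287, and for 6 leukocyte markers 324 to 344 and 353 to 380, where CD68 rose by 0.39 (limma, adjusted p = 0.0171) and the defining marker PTPRC lay at 3.55, within the 2.98 to 4.92 of those background controls whose probes hold between 10 and 16 bases of G or C (controls richer in G and C read higher). The plasma cell sum came mainly from SDC1, at a mean level of 10.12, whereas the others of that list lay at 3.42 to 6.65. Of the 5 plasma cell markers 0 passed. The ACTB difference was fitted as a covariate below, but it did not overlap between the groups, so that fit cannot separate RNA quality from the hairpin. The part of these cell types in the results was not tested.

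Of the 39 measured genes 13 rose and 5 fell, 46.2% in all, where 16.8% of all genes passed, 8.97% as rises and 7.79% as falls. The share called grew with signal over all genes: among the 3594 genes whose levels lay between the quartiles of these members' levels, 30.6% passed, 17.9% as rises and 12.6% as falls. The degradation class held 7 rises and 1 fall among 16 genes, with a median log2 change of 0.16. The translocon class held 4 rises and 0 falls among 5 genes, with a median of 0.24. In the chaperone and oxidative folding class 1 of 15 genes rose and 4 fell, with a median of -0.10, whereas the median over all genes was -0.01. Set to the control mean of each gene, the class average on the single CDKL1 shRNA arrays was 0.18 to 0.21 for degradation, 0.18 to 0.19 for the translocon and -0.09 to -0.07 for chaperones. The control arrays spread over -0.01 to 0.01, -0.01 to 0.01 and -0.02 to 0.01 in the same classes. No class average of a CDKL1 shRNA array lay inside the control range of these 3 classes. That separation is not particular to them. In a further list of glycan trimming genes the averages were 0.03 to 0.05 on CDKL1 shRNA arrays and -0.01 to 0.01 on control arrays. In a list of stress transcription factors the ranges overlapped, at -0.04 to 0.05 and -0.03 to 0.03.

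**Figure D1:**
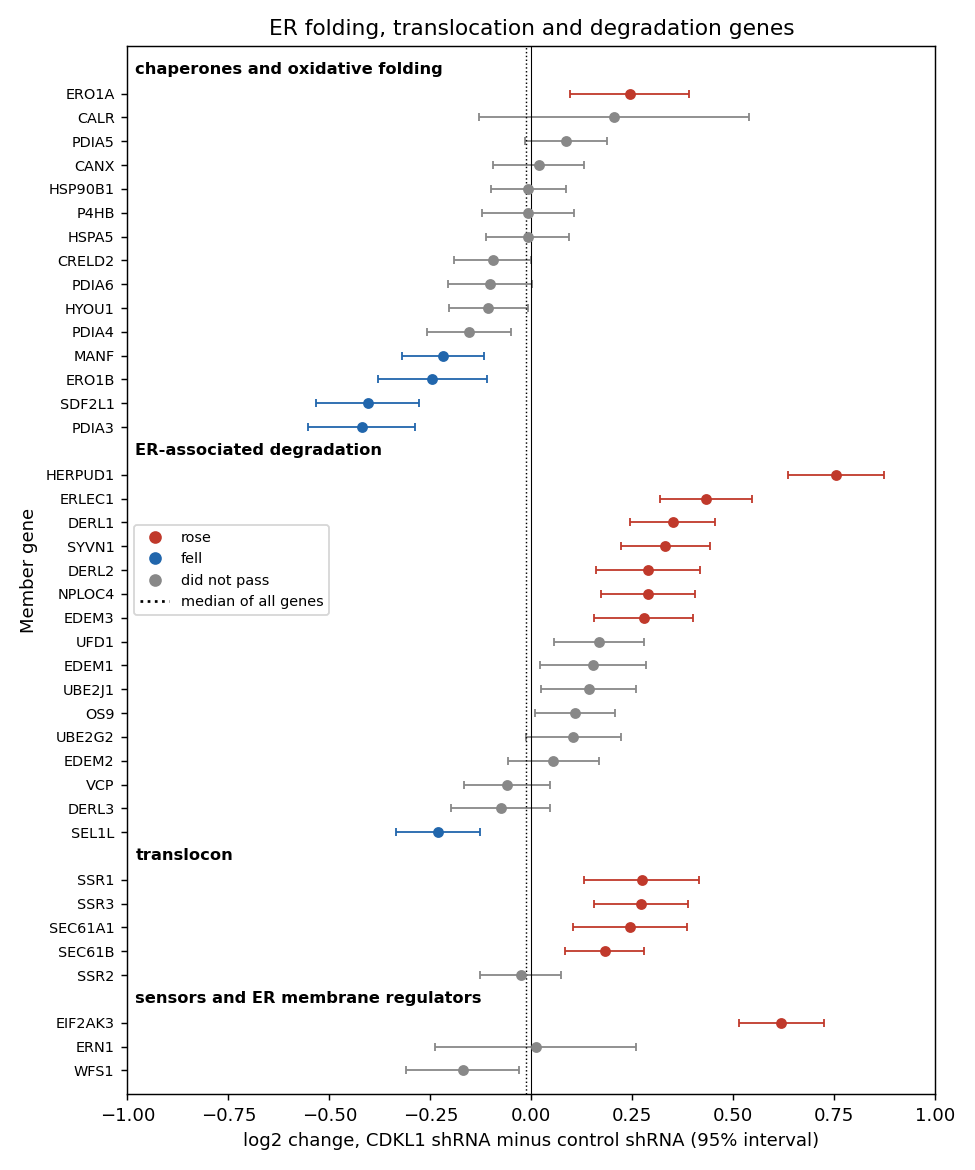
The log2 change of each of the 39 measured genes (CDKL1 shRNA minus control shRNA, points) with its 95% interval (bars, limma) is ordered by size within each class; red points rose, blue points fell and grey points did not pass. HERPUD1 at 0.75 and EIF2AK3 at 0.62 lie farthest to the right and PDIA3 at -0.42 farthest to the left, and the dotted line marks the median of all genes at -0.01.

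In 29 of the 39 genes the 3 arrays of one group lay wholly above or below those of the other, 19 higher and 10 lower with CDKL1 shRNA, where 35.7% of all genes were separated in this way. With the ACTB difference of each array as a covariate, 3 members passed in place of 18: HERPUD1 at 0.79 (limma, adjusted p = 0.0246), EIF2AK3 at 0.57 (adjusted p = 0.0408) and SDF2L1 at -0.54 (adjusted p = 0.0433). All 18 kept their sign in that fit, in which 219 of all genes passed, and the class medians were 0.21 for degradation, 0.23 for the translocon and -0.09 for chaperones. The ACTB difference was 1.39 to 1.41 in control and 1.52 to 1.73 in CDKL1 shRNA arrays, without overlap. The fit therefore cannot separate it from the hairpin, and standard errors were larger, for HSPA5 0.09 in place of 0.04. The lower count is thus no measure of how many calls depend on RNA quality. Without CDKL1 shRNA replicate 3, 11 members passed. With each of the other arrays left out in turn, 12 to 15 did.

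**Figure D2:**
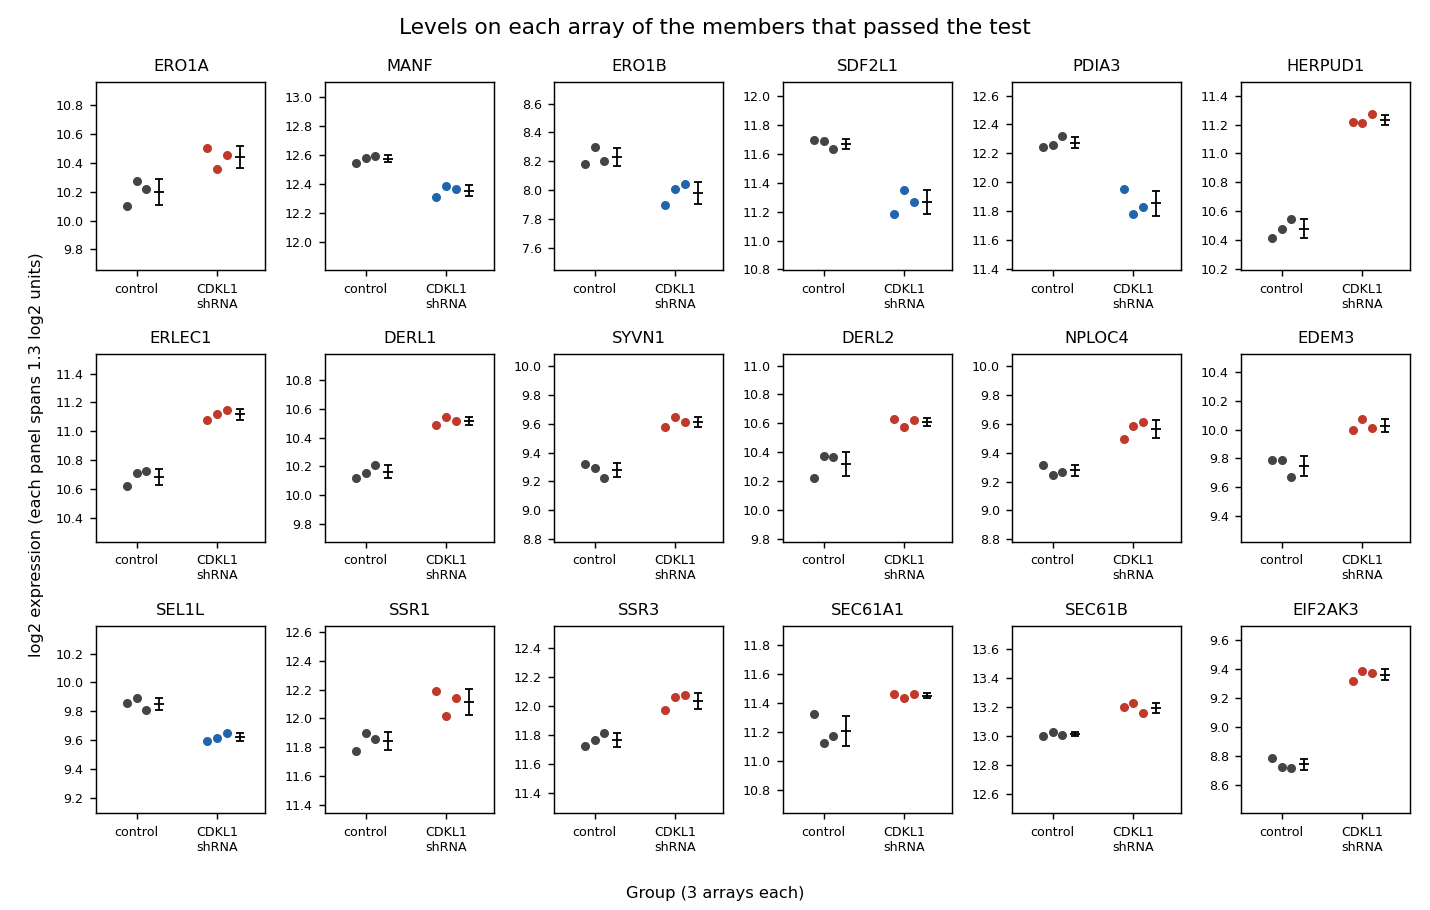
Log2 expression on each of the 6 arrays is shown for the 18 genes that rose or fell, with grey points for control shRNA, coloured points for CDKL1 shRNA, and the mean with its SD beside each group of 3. Every panel spans the same number of log2 units, and in none of the 18 do the groups overlap.

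Among the chaperones, the main ER folding factors showed no change that passed. HSPA5 encodes BiP, the ER HSP70 that binds unfolded chains and holds the stress sensors inactive. It read 13.46, 13.43 and 13.37 in control and 13.42, 13.42 and 13.39 in CDKL1 shRNA arrays, a log2 change of -0.01 with a 95% interval from -0.11 to 0.09. HSP90B1, the ER HSP90 GRP94, read 14.07, 14.09 and 14.10 against 14.07, 14.09 and 14.09, a change of -0.01 (interval from -0.10 to 0.08). CANX encodes calnexin, a membrane lectin that holds glycoproteins during folding, and read 13.21, 13.24 and 13.26 against 13.18, 13.28 and 13.29, a change of 0.02 (interval from -0.09 to 0.13). The groups overlapped in all of these genes. Of the 6 HSPA5 probe sets 0 passed, and their changes ran from -0.26 to 0.03. P4HB, the protein disulfide isomerase PDI, changed by -0.01 (interval from -0.12 to 0.11).

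CALR encodes calreticulin, the soluble partner of calnexin. It read 8.38, 8.57 and 8.61 in control and 9.07, 8.59 and 8.53 in CDKL1 shRNA arrays, so that replicate 1 alone stood above the rest, and its change of 0.20 did not pass (limma, adjusted p = 0.396). Its other probe set had the opposite sign, with a change of -0.26 that passed over all probe sets (adjusted p = 0.0484). The direction of CALR is therefore not settled by these probe sets.

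The falls among folding genes were those of PDIA3, SDF2L1, MANF and ERO1B. PDIA3, the disulfide isomerase ERp57 that works with calnexin and calreticulin, read 12.25, 12.26 and 12.32 in control and 11.95, 11.78 and 11.83 in CDKL1 shRNA arrays. It fell by 0.42 on the log2 scale (SE 0.06, limma, adjusted p = 0.0035), and every CDKL1 shRNA array lay below every control array. Its other probe set gave -0.14 and did not pass (adjusted p = 0.114 over all probe sets). SDF2L1, a cofactor of BiP and its J proteins, read 11.70, 11.69 and 11.63 against 11.19, 11.35 and 11.26 and fell by 0.41 (SE 0.05, adjusted p = 0.00334). MANF, a secreted ER stress protein that binds BiP, read 12.55, 12.58 and 12.60 against 12.31, 12.39 and 12.37 and fell by 0.22 (SE 0.04, adjusted p = 0.015). In both genes the groups lay apart. The MANF call was lost when control replicate 2, control replicate 3 or CDKL1 shRNA replicate 3 was left out, at adjusted p = 0.0553, 0.0596 and 0.0525. With each array left out in turn its change stayed between -0.24 and -0.20.

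The ERO1 oxidases, which pass oxidising equivalents to PDI, went opposite ways. ERO1A read 10.10, 10.27 and 10.22 in control and 10.50, 10.36 and 10.46 in CDKL1 shRNA arrays and rose by 0.24 (SE 0.06, limma, adjusted p = 0.038). ERO1B read 8.18, 8.30 and 8.20 against 7.90, 8.01 and 8.04 and fell by 0.24 (SE 0.06, adjusted p = 0.0277). Both calls were close to the threshold. With 1 array left out ERO1A passed only without CDKL1 shRNA replicate 2 (adjusted p = 0.0427, against 0.0534 to 0.115 without any other array) and ERO1B only without control replicate 1 (adjusted p = 0.0448, against 0.0528 to 0.0896). After subtraction of each array's median ERO1A did not pass (adjusted p = 0.0511). In the limma fit over all probe sets the dimmer ERO1A probe set rose by 0.28 (adjusted p = 0.0141), and the brighter one had adjusted p = 0.0507. The average of the 4 ERO1B probe sets changed by -0.08 (adjusted p = 0.52), but those other than the one used were dim, at 5.28 to 5.65 against 8.10.

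The other folding genes did not pass. PDIA4 (-0.15, limma, adjusted p = 0.0549), HYOU1 (-0.11), PDIA6 (-0.10) and CRELD2 (-0.10) were lower on all CDKL1 shRNA arrays than on any control array, and PDIA5 (0.09) was higher on all of them. PDIA4, PDIA5 and PDIA6 are further disulfide isomerases, HYOU1 is an ER HSP70 relative that exchanges nucleotide on BiP, and CRELD2 is a secreted ER stress protein. Without control replicate 2, control replicate 3 or CDKL1 shRNA replicate 3, 2 folding genes fell in place of 4.

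Chaperone promoters are known for the ER stress response element (ERSE), which reads CCAAT, then 9 bases of any kind, then CCACG, and to which the factor NF-Y binds at CCAAT and ATF6 or XBP1 at CCACG. The shorter ERSE-II reads ATTGG, 1 base of any kind, then CCACG, and an XBP1 core motif (UPRE core) reads TGACGTGG. Promoter windows of 300 bases, from 250 before to 50 after each annotated start, were searched on both strands for these letters in the RefSeq promoter table of GRCh38.p14, which holds windows for 36 of the 40 genes. ERSE was found in 7 of these 36 genes (19.4%) and in 0.125% of the 14425 measured genes with a window. ERSE-II was found in 3 of the 36 genes (8.33%) and 0.111% of measured genes, and the UPRE core in 4 (11.1%) and 1.11%. A gene can have several windows, and of all 35116 windows 0.0769% held ERSE, 0.0541% ERSE-II and 0.729% the UPRE core. In none of the 35116 windows did an ERSE match overlap an ERSE-II match, whereas 1 UPRE core of HYOU1 overlaps its ERSE-II. The ERSE matches of the 7 genes are shown because 6 of the 7 belong to genes that did not pass, with the match in capitals and up to 12 bases on either side, 5′ to 3′ on the strand of the gene.
HSPA5: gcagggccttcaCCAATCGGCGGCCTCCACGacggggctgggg
HSP90B1, upstream match: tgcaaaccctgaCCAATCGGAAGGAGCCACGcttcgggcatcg
HSP90B1, downstream match: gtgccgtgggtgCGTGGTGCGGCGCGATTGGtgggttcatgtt
CALR: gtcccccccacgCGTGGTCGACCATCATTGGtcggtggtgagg
CANX: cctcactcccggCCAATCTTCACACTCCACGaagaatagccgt
PDIA6: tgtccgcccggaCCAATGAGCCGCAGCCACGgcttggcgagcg
CRELD2: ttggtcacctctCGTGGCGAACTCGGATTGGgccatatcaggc
ERO1B: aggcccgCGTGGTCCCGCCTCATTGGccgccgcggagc

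These stretches lie at chr9:125241379-125241421 (minus strand) for HSPA5, chr12:103930204-103930246 and chr12:103930309-103930351 (plus) for HSP90B1, chr19:12938372-12938414 (plus) for CALR and chr5:179698766-179698808 (plus) for CANX. They lie at chr2:10812841-10812883 (minus) for PDIA6, chr22:49918542-49918584 (plus) for CRELD2 and chr1:236282171-236282208 (minus) for ERO1B. Counted from the annotated start, the HSPA5 match runs from base -66 to -48 and the CRELD2 match from -80 to -62. Among measured members with a window, 0 of the 12 that rose held an ERSE, 1 of the 4 that fell did (ERO1B), and 6 of the 19 that did not pass did. All 7 genes with an ERSE belong to the chaperone and oxidative folding class, where 1 of 15 genes rose. Call and class can therefore not be told apart in these counts. The simpler CCAAT box, which is part of ERSE, was found in 8 of the 12, 4 of the 4 and 15 of the 19, and in 42.4% of measured genes with a window (34.6% of all windows). A match in these letters is no evidence that a factor was bound in these cells. A missing match concerns this window and these exact letters alone.

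With each gene read from its brightest probe set, HERPUD1 had the largest rise of the 39; with all probe sets of a gene averaged, SSR3 did, at 1.16 against 0.67. HERPUD1 encodes an ER membrane protein with a ubiquitin-like domain that joins the HRD1 ligase complex, and its gene is a known ER stress target. It read 10.41, 10.48 and 10.55 in control arrays and 11.22, 11.21 and 11.27 in CDKL1 shRNA arrays. No array of one group came near those of the other, and the rise was 0.75 (SE 0.05, limma, adjusted p = 0.00025), or 1.69-fold. All 4 of its probe sets rose, by 0.42 to 0.79. Read from the brightest probe set, HERPUD1 and EIF2AK3 were the members that rose at least 1.5-fold, as did 0.689% of all genes, and 0 members fell by as much, as did 0.513%. The other 3 probe sets of SSR3, described with the translocon, rose by more than either gene.

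The HERPUD1 promoter window is shown whole because this gene rose in every probe set and holds ERSE-II but no exact ERSE match. The ERSE-II match, from base -117 to -107, is in capitals. The search took exact letters only. The window also holds ccaatgggcggcagccaca, which differs from ERSE in its last base alone. It lies at chr16:56931892-56932191 on the plus strand of GRCh38.p14.
HERPUD1: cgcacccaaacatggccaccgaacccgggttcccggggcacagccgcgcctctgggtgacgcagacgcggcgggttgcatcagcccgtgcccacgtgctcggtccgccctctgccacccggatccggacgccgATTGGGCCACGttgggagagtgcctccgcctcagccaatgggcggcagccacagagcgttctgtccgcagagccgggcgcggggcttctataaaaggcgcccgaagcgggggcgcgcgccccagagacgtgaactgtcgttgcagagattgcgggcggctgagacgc

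The other members with ERSE-II did not move with HERPUD1. SDF2L1, which fell, and HYOU1, which did not pass, hold it on the opposite strand, at chr22:21642102-21642136 (plus) and, for HYOU1 on the minus strand, at chr11:119057368-119057402 and chr11:119057262-119057296.
SDF2L1: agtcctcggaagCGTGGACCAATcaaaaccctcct
HYOU1, upstream match: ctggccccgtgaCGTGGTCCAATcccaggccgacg
HYOU1, downstream match: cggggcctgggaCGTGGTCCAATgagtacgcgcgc

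The ubiquitin ligase of this pathway and its adaptor went opposite ways. SYVN1 encodes HRD1, the membrane ligase that marks ER proteins for the proteasome, and read 9.32, 9.29 and 9.22 in control and 9.58, 9.64 and 9.61 in CDKL1 shRNA arrays, a rise of 0.33 (SE 0.05, limma, adjusted p = 0.00402). SEL1L, the adaptor that stabilises HRD1 and receives substrates, read 9.86, 9.89 and 9.81 against 9.60, 9.61 and 9.65 and fell by 0.23 (SE 0.04, adjusted p = 0.0134). The groups did not overlap in either gene. Each of these calls came from a single probe set: the other SYVN1 probe set gave 0.00, and the 3 others of SEL1L gave 0.01 to 0.07. These others were dimmer, at mean levels of 5.53 for SYVN1 and 7.30, 3.84 and 3.56 for SEL1L. The probe sets used lay at 9.44 and 9.74, so dim readings weigh little against either call. SEL1L did not pass without control replicate 2 (adjusted p = 0.0546) or with its 4 probe sets averaged, at -0.03 (adjusted p = 0.773).

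Among the lectin, glycan-trimming and derlin genes, ERLEC1, EDEM3, DERL1 and DERL2 rose. ERLEC1, a lectin that binds trimmed glycans on misfolded proteins, read 10.62, 10.71 and 10.72 in control and 11.08, 11.12 and 11.15 in CDKL1 shRNA arrays, a rise of 0.43 (SE 0.05, limma, adjusted p = 0.00161). EDEM3, a mannosidase-like protein that trims glycans for degradation, read 9.79, 9.79 and 9.67 against 10.00, 10.08 and 10.01, a rise of 0.28 (SE 0.05, adjusted p = 0.0121). In both genes every CDKL1 shRNA array lay above the controls, and all of their probe sets had a positive sign. DERL1, a derlin of the retrotranslocation channel, read 10.12, 10.16 and 10.21 against 10.48, 10.54 and 10.51 and rose by 0.35 (SE 0.04, adjusted p = 0.00286), in all 3 of its probe sets. Its relative DERL2 read 10.22, 10.37 and 10.37 against 10.63, 10.57 and 10.62 and rose by 0.29 (SE 0.05, adjusted p = 0.0127), a call lost without CDKL1 shRNA replicate 3 (adjusted p = 0.052). The third derlin, DERL3, changed by -0.08 and did not pass.

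VCP encodes p97, the ATPase that pulls substrates out of the membrane with its cofactors UFD1 and NPLOC4. VCP read 11.62, 11.69 and 11.68 in control and 11.62, 11.55 and 11.64 in CDKL1 shRNA arrays, overlapping groups with a change of -0.06 (limma, adjusted p = 0.435). UFD1 changed by 0.17 with groups apart, and did not pass (adjusted p = 0.0538), although it did without CDKL1 shRNA replicate 1 (adjusted p = 0.0495). NPLOC4 read 9.32, 9.24 and 9.27 against 9.50, 9.59 and 9.61 and rose by 0.29 (SE 0.05, adjusted p = 0.00865). That rise was seen in 1 of its 4 probe sets. The others gave 0.06, 0.05 and -0.32, none of which passed, and their average with the first was 0.02 (adjusted p = 0.867). They lay at mean levels of 8.25, 8.22 and 4.89, against 9.42 for the first.

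The remaining degradation genes did not pass. EDEM1 (0.15) and EDEM2 (0.05), relatives of EDEM3, the lectin gene OS9 (0.11) and the ubiquitin-conjugating enzyme genes UBE2J1 (0.14) and UBE2G2 (0.10) all had positive changes in their brightest probe set. Of the 4 UBE2G2 probe sets 2 were negative, at -0.09 and -0.12. Without _s_at and _x_at probe sets UBE2G2 changed by -0.12, so its direction is not settled. EDEM1, EDEM2 and OS9 also had negative dimmer probe sets, whereas all 4 of UBE2J1 were positive. With the probe sets of each gene averaged, the median of the degradation class was 0.09 in place of 0.16, and 6 genes rose and 0 fell. With 1 array left out 6 to 8 degradation genes rose.

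**Figure D3:**
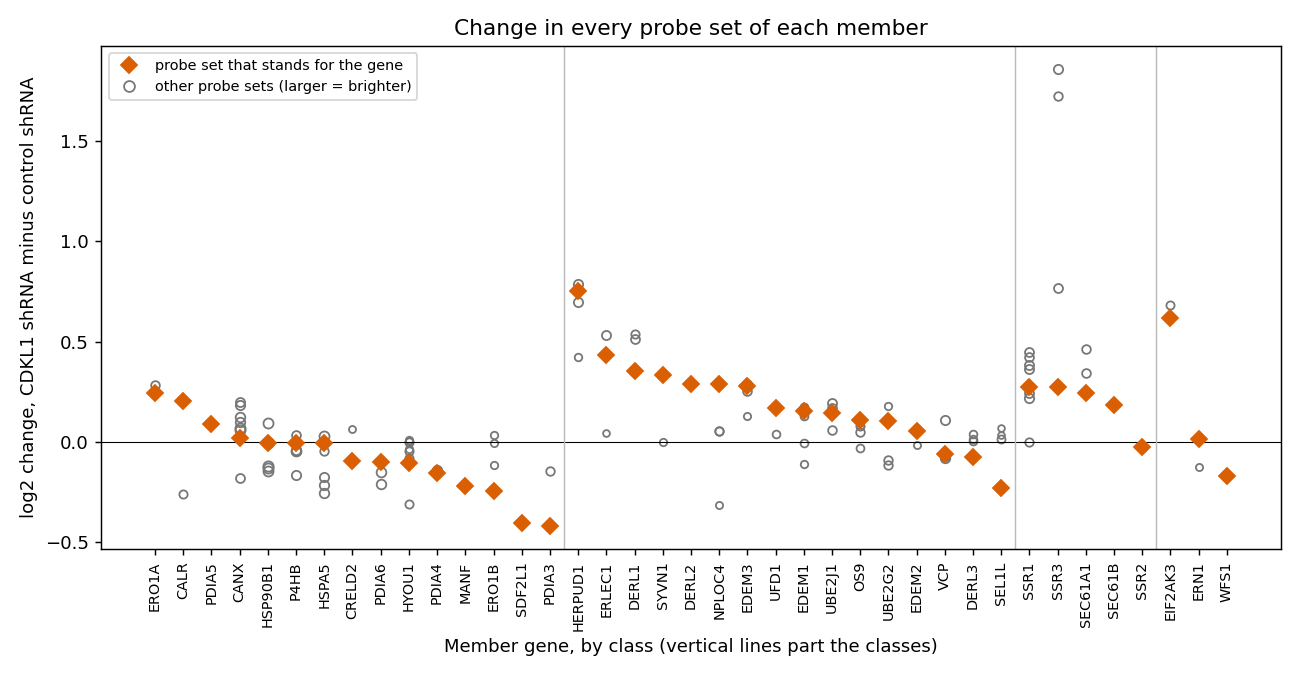
Each symbol is the log2 change (CDKL1 shRNA minus control shRNA) of 1 probe set of a member gene, with the probe set that stands for the gene as an orange diamond and the others as open circles that grow with signal. SSR3 spans 0.27 to 1.86 and HERPUD1 0.42 to 0.79, all above 0, whereas the probe sets of many other genes, CALR, SEL1L and NPLOC4 among them, lie on both sides of 0.

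The translocon genes were higher with CDKL1 shRNA in 4 of the 5 measured. SEC61A1 encodes the pore of the SEC61 channel and read 11.33, 11.13 and 11.17 in control and 11.46, 11.43 and 11.46 in CDKL1 shRNA arrays, a rise of 0.24 (SE 0.06, limma, adjusted p = 0.0321). SEC61B, a small subunit of the channel, read 13.00, 13.03 and 13.01 against 13.20, 13.23 and 13.16 and rose by 0.18 (SE 0.04, adjusted p = 0.0253). The groups lay apart in both, although control replicate 1 of SEC61A1 came close to the CDKL1 shRNA arrays. All 3 SEC61A1 probe sets rose, by 0.24 to 0.46. Both calls were near the threshold. SEC61B did not pass without any 1 of the arrays (adjusted p = 0.0549 to 0.0839). With 1 array left out SEC61A1 passed only without control replicate 1 (adjusted p = 0.0112, against 0.0703 to 0.101), and it did not pass after a further quantile normalisation (adjusted p = 0.0544).

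The translocon-associated protein complex, encoded by the SSR genes, sits beside the channel and helps chains enter. SSR1 read 11.78, 11.90 and 11.86 in control and 12.19, 12.01 and 12.14 in CDKL1 shRNA arrays and rose by 0.27 (SE 0.06, limma, adjusted p = 0.0228). Of its 8 probe sets 6 rose. It did not pass without control replicate 1 or 3 or CDKL1 shRNA replicate 1 or 3 (adjusted p = 0.063 to 0.0822). SSR2 read 11.07, 11.07 and 11.12 against 11.04, 11.09 and 11.05, overlapping groups with a change of -0.03 (interval from -0.13 to 0.07). With 1 array left out 1 or 2 translocon genes rose in place of 4, 2 without control replicate 1, control replicate 2 or CDKL1 shRNA replicate 2 and 1 without each of the others, while the class median stayed at 0.20 to 0.25.

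SSR3 differed most between its probe sets. The probe set that stands for it, the brightest of 4, read 11.72, 11.77 and 11.81 in control and 11.97, 12.06 and 12.08 in CDKL1 shRNA arrays, a rise of 0.27 (SE 0.05, limma, adjusted p = 0.0113). The second brightest, whose probes can bind related transcripts, read 9.74, 9.83 and 9.80 against 11.67, 11.64 and 11.65, a rise of 1.86 (adjusted p = 1.7e-05 over all probe sets). The dimmest read 7.95, 7.97 and 7.87 against 9.53, 9.63 and 9.80, a rise of 1.72 (adjusted p = 8.3e-05). The remaining probe set rose by 0.77 (adjusted p = 0.000381). All 4 rose, their average by 1.16 (adjusted p = 2.7e-05), and in the steepest the change was larger than in any other probe set of the 39 genes. The sequence of the probes was not used here, and which SSR3 transcripts each probe set reads was not tested. Of the 3 annotated SSR3 promoter windows, 1 holds the UPRE core on the opposite strand, at chr3:156554147-156554178 (minus).
SSR3: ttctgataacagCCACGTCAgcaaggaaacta

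**Figure D4:**
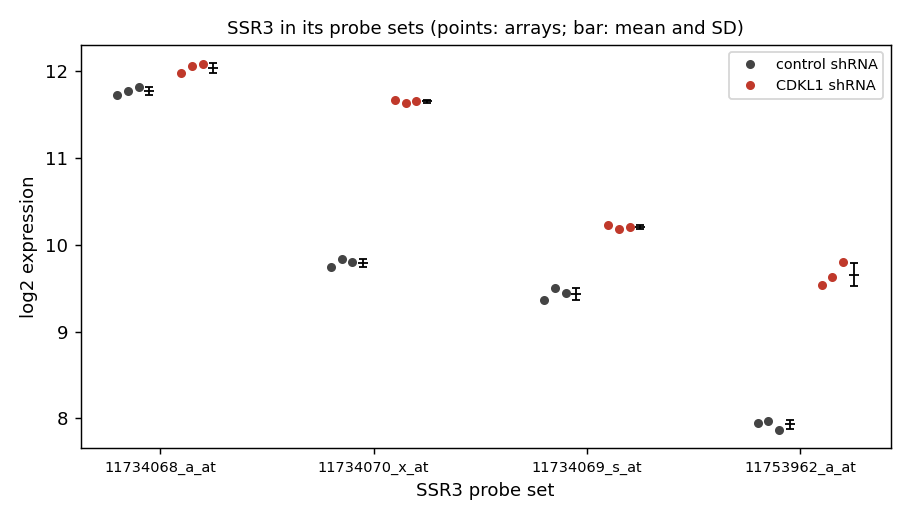
Log2 expression of SSR3 on each array is shown for its 4 probe sets, with control shRNA in grey, CDKL1 shRNA in red, and the mean and SD of the 3 arrays beside each group. The groups are 0.27 apart on the mean in the probe set at the left and 1.86, 0.77 and 1.72 apart in the others, from left to right.

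Of the 3 genes in the sensor and membrane regulator class, EIF2AK3 passed, and the sensor gene ATF6 is given with the stress factors. EIF2AK3 encodes PERK, the kinase that slows translation under ER stress, and read 8.78, 8.73 and 8.71 in control and 9.32, 9.39 and 9.37 in CDKL1 shRNA arrays. It rose by 0.62 (SE 0.04, limma, adjusted p = 0.000339), or 1.54-fold, with groups well apart. All 3 of its probe sets rose, by 0.62 to 0.68. ERN1, which encodes the sensor IRE1, read 5.31, 5.51 and 5.32 against 5.21, 5.60 and 5.37, overlapping groups with a change of 0.01 (interval from -0.24 to 0.26), at a level where the array gives little precision. WFS1, whose product wolframin is an ER membrane protein, changed by -0.17 and did not pass (adjusted p = 0.101).

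Other genes of the same machinery were read from lists by role, 91 genes of which 89 were measured. Of these 27 rose (30.3%) and 7 fell (7.87%), with a median of 0.10, beside 8.97% and 7.79% of all genes. Their median level was 10.49, and among the 3594 genes between the quartiles of the members' levels 17.9% rose and 12.6% fell. The calls in these lists were not checked in other probe sets, with arrays left out or with the ACTB covariate. The ER J proteins and nucleotide exchange factors, the partners of BiP, held 5 rises among 7 genes: the disulfide reductase gene DNAJC10 (0.57, SE 0.06, limma, adjusted p = 0.00143), SEC63 of the translocon (0.38), DNAJB9 (0.36) and DNAJC3 (0.32) among them. The signal recognition particle, which brings nascent chains to the ER, and its receptor held 3 rises among 8: SRP54 (0.65, SE 0.05, adjusted p = 0.000474), SRPRA (0.57) and SRPRB (0.43). None of the genes in these lists fell.

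Among further translocon, signal peptidase and insertion genes 5 of 19 rose and 2 fell, with TRAM1, a channel-associated protein gene, highest at 0.57 (SE 0.04, limma, adjusted p = 0.000401), followed by EMC7 (0.34) and EMC3 (0.31) of the membrane insertion complex, and SSR4 (0.24). The oligosaccharyltransferase list, whose enzyme attaches glycans to entering chains, held 4 rises among 10, with the catalytic subunit gene STT3A at 0.46 (SE 0.04, adjusted p = 0.000897), DAD1 at 0.23, KRTCAP2 at 0.21 and TUSC3, at a mean level of only 5.24, at 0.41. In the list of further degradation factors 4 of 18 rose and 2 fell, among them SELENOS (0.49), FAM8A1 (0.46) and the ubiquitin ligase gene UBE4A (0.39) as rises and ERLIN1 (-0.22) as a fall. Glycan trimming genes held 2 rises among 7, MOGS (0.24) and UGGT2 (0.17).

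Further disulfide isomerases moved both ways, with 3 rises and 2 falls among 11 genes. ERP44 (0.38) and TMX2 (0.28) rose, whereas TMX4 (-0.44) and ERP29 (-0.24) fell. Of 9 stress transcription factor and feedback genes 1 rose and 1 fell. ATF6, the membrane-bound factor that is cut to enter the nucleus, rose by 0.32 (SE 0.05, limma, adjusted p = 0.00538), and TRIB3, a target of the PERK branch, fell by 0.70 (SE 0.05, adjusted p = 0.000304). XBP1 (0.11), ATF4 (-0.10) and DDIT3 (0.01), which were chosen for mention after their values were seen, did not pass.

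**Figure D5:**
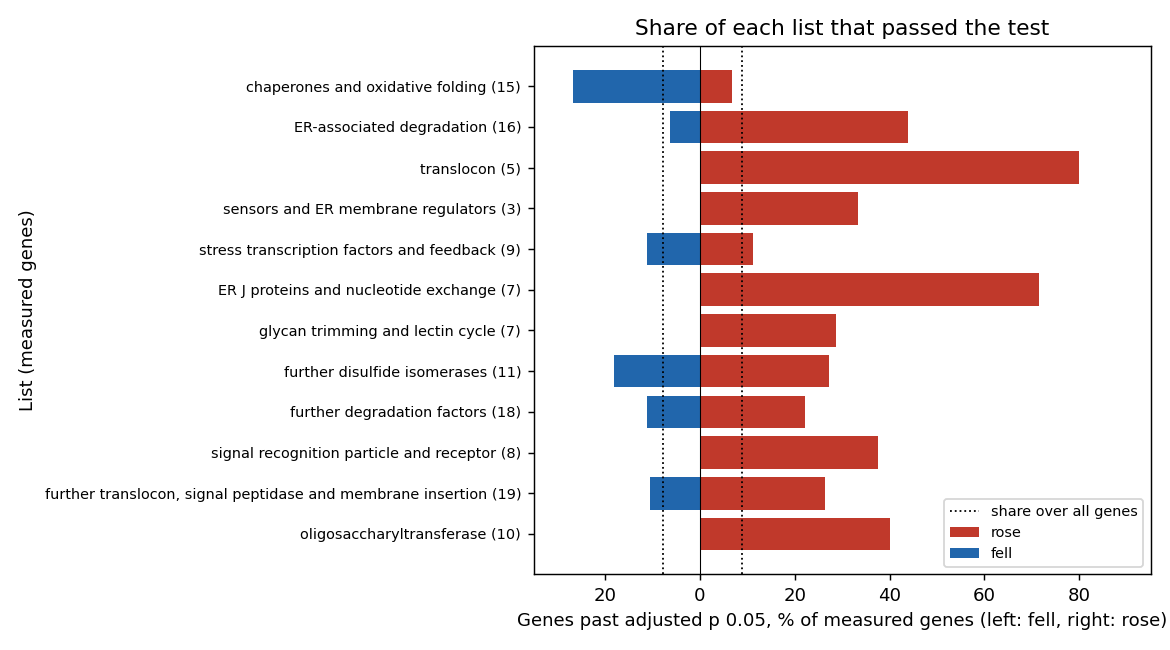
Bars give the percent of measured genes in each list that rose (red, right) or fell (blue, left), with the number measured in brackets, and dotted lines mark 8.97% and 7.79%, the shares over all genes. The translocon bar reaches 80% and the ER J protein bar 71.4%, from 5 and 7 genes, while the chaperone and oxidative folding class has 26.7% falls and 6.67% rises.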

How the data were processed

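The authors deposited log2 values for 49395 probe sets on each array. They were made with RMA, per the submitters' processing notes. RMA corrects background, normalises between arrays and gives 1 log2 value per probe set; neither version nor settings were stated. RMA shrinks changes of dim probe sets towards 0. Gene names came from GEO's platform annotation, where 44988 had 1 symbol, 1832 several and 2473 none, beside 102 controls. Probe sets with several symbols were not used, no filter was applied, and those ending in _s_at or _x_at can bind related transcripts. No label says whether the 3 samples of a group came from separate infections, and p-values cover only the spread among them, which may be technical.

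Groups were compared in limma 3.58.1 in R 4.3.3 (lmFit, eBayes, two-sided, Benjamini-Hochberg over 18132 genes, threshold 0.05); probe sets were fitted separately. Members, further lists, the rule for named genes (array values for members that passed and for HSPA5, HSP90B1, CALR, CANX, SEC61A1, SEL1L and VCP, and up to 4 genes of each further list with the smallest adjusted p among those that passed) and the tests were chosen with earlier results of these data known. Array values of SSR2 and ERN1 were added after they were seen. On data simulated for this comparison over 18132 genes, 48% of 50 genes changed 1.25-fold, 84% at 1.5-fold, 98% at 2-fold and 100% at 3-fold were recovered, with 9 unchanged genes called. Only 50 genes were changed at each fold, whereas 3040 genes passed in the data, so these rates need not hold for this comparison. Figures were drawn with matplotlib 3.10.9 in Python 3.11.15. Alternatives were the mean of all probe sets, no _s_at or _x_at probe sets, a further quantile normalisation, subtraction of array medians, a filter on dim genes, an intensity trend, the ACTB 3' minus 5' covariate, a replicate block and leaving out each array. Precision is limited by having 3 arrays a group.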

Additional observations from a re-analysis of the deposited data

How the results depend on the processing

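In the 14 alternatives none of the 18 called members changed sign, and 3 of them, HERPUD1, SDF2L1 and EIF2AK3, passed in every one. With each array left out in turn 10 of the 18 passed in all 6 fits, 11 to 15 members passed in each, and 1633 to 2399 of all genes did. With the ACTB 3' minus 5' covariate 3 members and 219 of all genes passed, while the class medians were 0.21 (degradation, against 0.16), 0.23 (translocon, against 0.24), -0.09 (chaperones, against -0.10) and -0.28 (sensors, against 0.01). That covariate did not overlap between the groups, so the fit had larger standard errors and cannot separate it from the hairpin. With the replicate number as a block 12 members and 1803 of all genes passed, and 6 members lost their call under it. The labels do not say whether the numbers pair the samples. Deviations of same-numbered arrays correlated at -0.03, -0.12 and 0.07, and those of arrays with unlike numbers at -0.102 to 0.125. No shared replicate effect was seen, which does not settle whether the samples were paired. Over genes above the median level 26 of 37 members and 3991 of 9066 genes passed. With an intensity trend 25 of 39 members and 4201 of 18132 genes did. In the main fit 18 of 39 members and 3040 of 18132 genes passed, so the counts grew over all genes too. Without _s_at and _x_at probe sets PDIA3 did not pass, at -0.14 (adjusted p = 0.104). Members that had not passed changed sign 17 times, in 8 genes. Signal over background limits dim genes such as ERN1.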
